A study of Mus musculus with 6 samples.

Results

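The mitochondrial respiratory chain and ATP synthase are built from many subunits, and 38 genes of the nuclear genome that encode subunits of complexes II to V or cytochrome c were followed here among the 54532 genes measured in mouse brain. They comprised 4 genes of complex II, 9 of complex III, the gene of cytochrome c, 10 genes of complex IV and 14 genes of complex V. They were listed by name and function, under a rule that uses no measured value but was written with earlier results of these data known, and were matched through the GENCODE M21 annotation of the mouse genome (GRCm38). RNA was sequenced from the brains of Angptl2+/+ mice and Angptl2-/- mice at postnatal day 15, with 3 libraries per genotype (n = 3). The Angptl2-/- (Angptl2-null) mice, on a C57BL/6 background, lacked exon 2 of Angptl2 after Angptl2 fl/fl; Stra8-cre males, in which Cre acts in the male germ line, had been bred to wild-type females. Angptl2 encodes a secreted glycoprotein, and no other allele or treatment is named for either group. The labels give the samples as brain with all of its cell types, without stating the dissection, and do not say that each library came from a separate mouse, so that p-values measure the spread between libraries.

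Complex II oxidises succinate in the tricarboxylic acid cycle and passes the electrons to ubiquinone. Complex III carries them on to cytochrome c, complex IV delivers them to oxygen, and the proton gradient built by complexes III and IV, together with complex I, drives ATP synthesis by complex V. All subunits of complex II and most subunits of the others are imported from the cytosol, whereas a few core subunits of complexes III to V are made inside the mitochondrion. Brain relies heavily on this pathway, since synaptic signalling and ion pumping consume much ATP.

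The values were FPKM, which relate the fragments of a gene to its length and to a scale for each library. The libraries held 17127300 to 18928900 fragments assigned to genes. Angptl2 had 0.66, 0.958 and 0.29 FPKM in the Angptl2+/+ libraries and 0.166, 0.32 and 0.126 in the Angptl2-/- libraries (13 to 107 fragments), so that the genotypes overlapped (exact permutation test, two-sided, p = 0.2, where 0.1 is the smallest possible). These are values of the whole gene, and they do not test the loss of exon 2. Markers of neurons, astrocytes, mature oligodendrocytes and microglia were present in every library. The summed FPKM of 7 choroid plexus markers was 1.82 to 8.22 in Angptl2+/+ and 105 to 941 in Angptl2-/-, and Ttr alone, the transthyretin made by this epithelium, had 0.58 to 4.29 and 99.6 to 916 FPKM. Angptl2+/+ replicate 1 stood apart in some markers of the cerebellum, with 10.5 FPKM of Gabra6, 10.9 of Cbln3 and 6.16 of Pcp2. The other 5 libraries had at most 0.167, 0.276 and 0.1 FPKM of these genes. The choroid plexus markers and these cerebellar markers were thus not in like amounts in all libraries. The dissection is not stated, and its part in these amounts, beside that of the genotype, was not tested. Xist, a marker of female cells, had at least 1 FPKM in 2 of the Angptl2+/+ libraries and in 1 of the Angptl2-/- libraries, and no test was adjusted for sex. In bulk brain RNA, fewer cells of a type and less RNA per cell cannot be told apart.

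All 38 genes were well expressed, with means over the 6 libraries from 10.3 FPKM (Atp5l) to 443 FPKM (Cox8a) and 106 to 18422 fragments per gene and library. A log2 fold change below 0, Angptl2-/- minus Angptl2+/+, was found for 33 of the 38 (86.8%), as against 50.6% of the 14862 genes tested, which had a mean FPKM of at least 0.5. In limma on log2(FPKM + 0.1) with Benjamini-Hochberg adjustment over all genes tested, 0 of the 38 genes had an adjusted p under 0.05, as did 0 of all genes (0%), and voom on the recovered fragments also gave 0. At an unadjusted p under 0.05, 13 of the 38 (34.2%) were lower in Angptl2-/-, as against 9.12% of all genes. None of the 38 was higher at that level, as against 7.09% of all genes. All 3 Angptl2-/- libraries lay below all 3 Angptl2+/+ libraries for 15 of the 38 (39.5%), as against 11.8% of all genes. The opposite separation was seen for 0 of the 38, as against 10.7% of all genes. The median log2 fold change of the 38 was −0.20, with a range from −1.04 to 0.14, beside a median of −0.00 over all genes tested. No single gene therefore passed the adjusted threshold, and the counts describe these libraries.

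**Figure D1:**
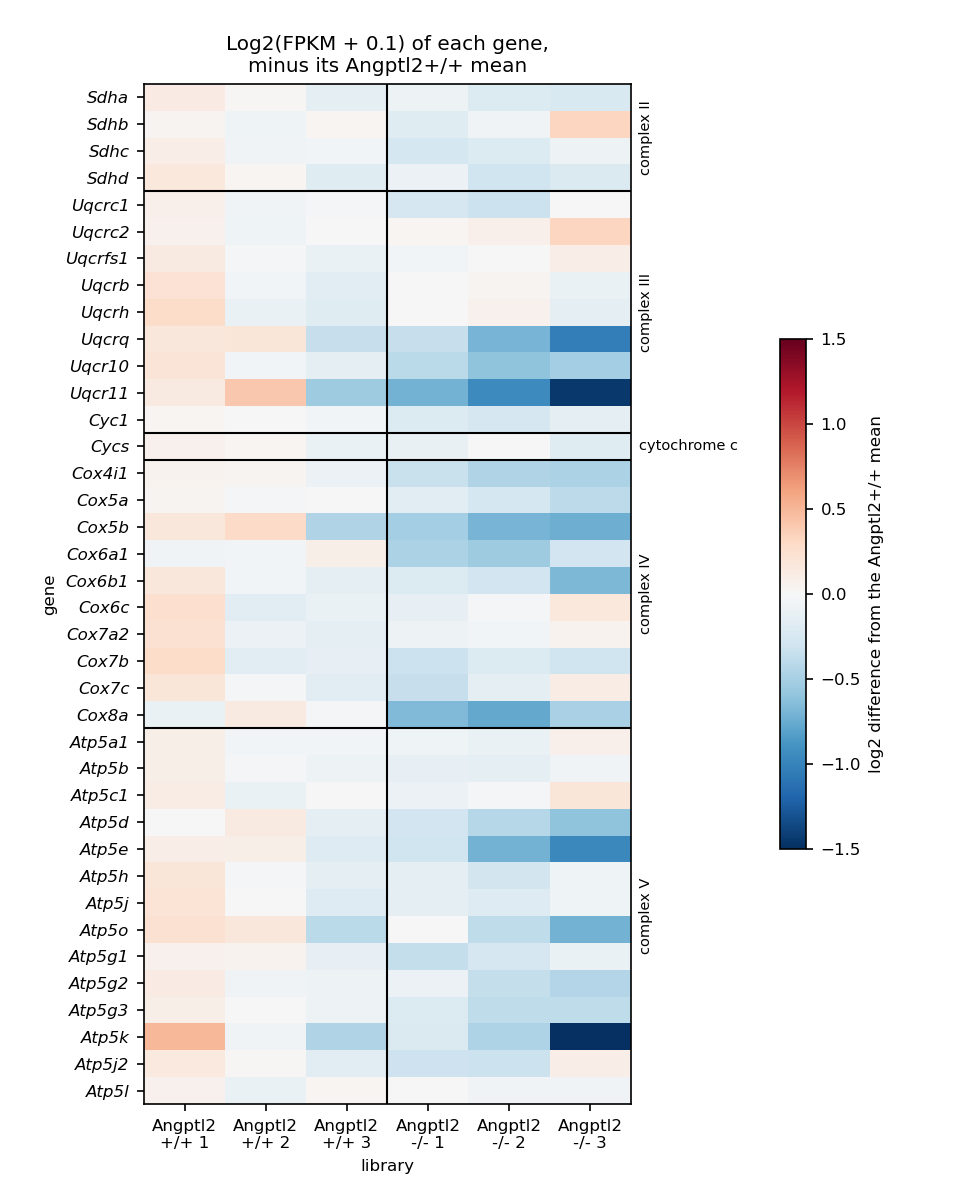
Heat map of log2(FPKM + 0.1) in each library (columns, 3 Angptl2+/+ then 3 Angptl2-/-) minus the mean of the 3 Angptl2+/+ libraries, for the 38 genes (rows) grouped by complex. Blue is lower and red higher, colours end at 1.5 in either direction (Atp5k in Angptl2-/- replicate 3 lies beyond, at −1.75), and the libraries of 7 of the 10 genes of complex IV are separated by genotype.

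The libraries of one genotype were not alike. Angptl2+/+ replicate 1 had the highest value of 29 of the 38 genes and the lowest of 0, and Angptl2-/- replicates 2 and 3 had the lowest value of 11 and 13 genes. Averaged over the 38 genes, the log2 level relative to the Angptl2+/+ mean was 0.131, 0.00653 and −0.138 in the Angptl2+/+ libraries and −0.217, −0.287 and −0.295 in the Angptl2-/- libraries. Angptl2+/+ replicate 3 was thus nearer to Angptl2-/- replicate 1 than to Angptl2+/+ replicate 1. The 38 genes together took 0.709%, 0.66% and 0.572% of the fragments of the Angptl2+/+ libraries and 0.575%, 0.534% and 0.56% of those of the Angptl2-/- libraries, which overlap by a narrow margin. The number of genes with a negative log2 fold change was 29 without Angptl2+/+ replicate 1 and 36 without Angptl2+/+ replicate 2, the lowest and highest counts when 1 library was left out. Angptl2+/+ replicate 1 alone had Gabra6, Cbln3 and Pcp2, markers of the cerebellum, well above 0. Without that library, 10 of the 38 genes were lower at an unadjusted p under 0.05, as against 1000 of all 14862 genes tested. The median log2 fold change of the 38 was then −0.13. In all, 29 genes stayed negative in all 6 of these fits.

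**Figure D2:**
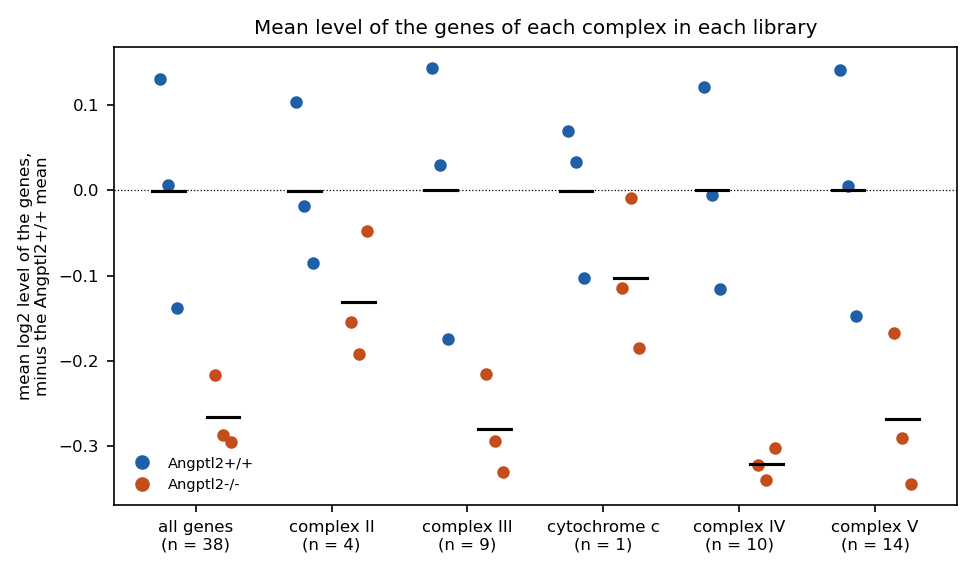
Mean log2(FPKM + 0.1) of the genes of each complex in each library, minus the Angptl2+/+ mean (points; blue, Angptl2+/+; orange, Angptl2-/-; bars, mean of 3 libraries). In complex IV the Angptl2-/- libraries (−0.34 to −0.302) lie below all Angptl2+/+ libraries (−0.116 to 0.121), whereas in complex II the genotypes overlap.

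Promoters of nuclear respiratory genes are known for sites of NRF1, of ETS factors such as GABPA, and of the oestrogen-related receptors, and the RefSeq promoter table (GRCm38.p6, 250 bases before to 50 bases after each start) held 30 of the 38 genes. The promoters shown belong to the genes of smallest p in complex III (Uqcr10), complex IV (Cox8a) and complex V (Atp5e), and to Cox7a2, a complex IV gene whose difference was near 0. Each is written in the direction of transcription, and capitals mark an exact match, on either strand, to any of 7 motifs whose letters are given in the next paragraph. Uqcr10 lies at chr11:4704295-4704594, Cox8a at chr19:7217567-7217866, Atp5e at chr2:174464052-174464351 and Cox7a2 at chr9:79759804-79760103, all on the minus strand.
Uqcr10: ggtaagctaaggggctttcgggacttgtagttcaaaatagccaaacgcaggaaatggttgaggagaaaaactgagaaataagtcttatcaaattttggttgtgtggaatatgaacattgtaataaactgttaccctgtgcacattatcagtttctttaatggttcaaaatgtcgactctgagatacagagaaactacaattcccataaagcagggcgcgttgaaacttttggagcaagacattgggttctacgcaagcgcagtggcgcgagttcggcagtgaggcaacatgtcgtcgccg
Cox8a: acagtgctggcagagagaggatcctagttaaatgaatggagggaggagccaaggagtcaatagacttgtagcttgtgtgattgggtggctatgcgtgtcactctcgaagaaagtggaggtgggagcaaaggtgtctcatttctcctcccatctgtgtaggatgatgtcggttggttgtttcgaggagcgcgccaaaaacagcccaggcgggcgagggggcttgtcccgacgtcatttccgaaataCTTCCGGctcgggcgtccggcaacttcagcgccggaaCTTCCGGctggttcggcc
Atp5e: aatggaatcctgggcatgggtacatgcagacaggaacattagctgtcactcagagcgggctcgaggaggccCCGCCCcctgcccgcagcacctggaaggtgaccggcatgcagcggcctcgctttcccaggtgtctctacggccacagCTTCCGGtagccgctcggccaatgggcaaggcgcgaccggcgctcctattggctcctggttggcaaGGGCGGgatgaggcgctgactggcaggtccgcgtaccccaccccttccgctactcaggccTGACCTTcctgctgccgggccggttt
Cox7a2: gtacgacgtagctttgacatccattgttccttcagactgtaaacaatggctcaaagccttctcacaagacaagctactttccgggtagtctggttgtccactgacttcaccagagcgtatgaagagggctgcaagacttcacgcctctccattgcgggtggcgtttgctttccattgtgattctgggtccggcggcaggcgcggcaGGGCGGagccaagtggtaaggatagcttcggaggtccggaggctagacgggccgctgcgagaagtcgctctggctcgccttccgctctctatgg
The Cox8a window held the ETS letters at 2 places, the Atp5e window held ETS letters, 1 match for the oestrogen-related receptors and 2 GC boxes, the Cox7a2 window held 1 GC box, and the Uqcr10 window held no match to these letters.

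Some genes have several starts in the table, so that the 30 genes had 33 windows and all 26994 genes had 32817, and a gene was counted once if any of its windows held the letters. Over the 30 genes, the ETS letters, CCGGAAG, were found for 12 genes (40.0%), as against 9.92% of all genes in the table and 18.7% of the tested genes in it. The NRF1 letters, GCGCATGCG, were found for 7 genes (23.3%), as against 1.94% and 3.9%. The 7 were Atp5g2, Atp5k, Atp5l, Cox6a1, Cycs, Uqcr11 and Uqcrc1. The letters of the oestrogen-related receptors, AAGGTCA, were found for 5 genes (16.7%; 5.39% and 3.87%). The letters of YY1, AAGATGG, were found for 3 of the 30 genes, as against 7.28% of all genes and 8.19% of tested genes. The GC box, GGGCGG, was found for 10 genes (33.3%), as against 38.2% of all genes and 68.6% of tested genes. The letters of the TATA box, TATAAA, were found only for Atp5l (3.3%; 15.7% and 8.68%). The cyclic AMP response element, TGACGTCA, was found for Cycs and Uqcrfs1 (6.7%; 2.03% and 3.58%). No base of the 4 windows shown lay in more than 1 of the motifs. These matches describe letters in a window and do not show binding.

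In complex II, which has no mitochondrially encoded subunit, the differences between the genotypes were small. Of its 4 genes, 3 had a negative log2 fold change, 0 had an unadjusted p under 0.05, 1 was separated, and the median was −0.18. Sdha, the flavoprotein that oxidises succinate and the most abundant of the 4, had 83.8, 78.0 and 69.2 FPKM in the Angptl2+/+ libraries and 72.6, 66.6 and 65.3 FPKM in the Angptl2-/- libraries. The genotypes overlapped, since Angptl2-/- replicate 1 lay above Angptl2+/+ replicate 3, and the log2 fold change was −0.17 (95% interval −0.43 to 0.08). Sdhc, 1 of the 2 membrane anchors and the least abundant gene of the complex, had 25.5, 22.8 and 23.0 FPKM in Angptl2+/+ and 19.8, 20.6 and 22.5 FPKM in Angptl2-/-. These groups did not overlap, but their nearest libraries differed by less than the SD of either (1.49 and 1.42 FPKM), and the log2 fold change was −0.18 (SE 0.10, adjusted p = 0.401). Sdhd, the other anchor, had a log2 fold change of −0.20 with overlapping libraries. Sdhb, the iron-sulphur subunit between Sdha and the membrane, had 46.9, 43.8 and 46.7 FPKM in Angptl2+/+ and 40.2, 44.0 and 57.4 FPKM in Angptl2-/-. Its log2 fold change of 0.03 rested on Angptl2-/- replicate 3, the highest of the 6, and was −0.12 without it.

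In complex III, the lowest values belonged to 3 small accessory subunits, while the core subunits lay between −0.20 and 0.14 on the log2 scale. Of 9 genes, 7 had a negative log2 fold change, 3 had an unadjusted p under 0.05 in that direction (Uqcr10, Uqcr11 and Uqcrq; 33.3%, as against 9.12% of all genes), and 3 were separated (Uqcr10, Uqcr11 and Cyc1; 33.3%, as against 11.8%). The median was −0.19, but −0.097 after the GC correction, −0.11 after the length correction and −0.12 under quantile normalization. The catalytic core is formed by the mitochondrially encoded cytochrome b, the Rieske iron-sulphur protein Uqcrfs1 and cytochrome c1 (Cyc1). Uqcrfs1 had 110, 98.9 and 93.9 FPKM in Angptl2+/+ and 97.6, 100.3 and 107.8 FPKM in Angptl2-/-, with a log2 fold change of 0.02 and wide overlap. Cyc1 had 71.0, 69.6 and 67.3 FPKM in Angptl2+/+ and 59.9, 58.0 and 62.7 FPKM in Angptl2-/-. These libraries were separated, the log2 fold change was −0.20 (95% interval −0.41 to 0.00, adjusted p = 0.317), and correcting for GC content turned it to 0.14. Of the core proteins that face the matrix, Uqcrc1 had a log2 fold change of −0.19 and Uqcrc2 of 0.14, both overlapped, and after the GC correction they were −0.026 and 0.0042. Uqcrc2 had 65.0, 59.2 and 61.8 FPKM in Angptl2+/+ and 63.0, 65.6 and 77.3 FPKM in Angptl2-/-, and its difference before that correction was the largest in the positive direction among the 38 genes, with a 95% interval from −0.12 to 0.40 and a value of 0.053 without Angptl2-/- replicate 3.

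Uqcr10, a small subunit next to cytochrome c1, had 135.4, 115.7 and 107.2 FPKM in Angptl2+/+ and 89.9, 78.2 and 83.6 FPKM in Angptl2-/- (chr11:4701973-4704342, minus strand). Every Angptl2-/- library lay below every Angptl2+/+ library, and the ratio of the genotypes was 0.705 on the log2(FPKM + 0.1) scale. Its log2 fold change was −0.50 (SE 0.12, unadjusted p = 0.00364, adjusted p = 0.273 from limma), and 0.273 was also the smallest adjusted p over all genes tested. Uqcr11, another small subunit, had 96.3, 116.1 and 60.4 FPKM in Angptl2+/+ and 53.5, 45.2 and 32.1 FPKM in Angptl2-/-. It was the largest difference of the 38 genes, with a log2 fold change of −1.04 (SE 0.28, adjusted p = 0.273), and its 6 libraries spread 3.62-fold from lowest to highest. Uqcrq, which lies beside cytochrome b, had 57.4, 57.9 and 40.2 FPKM in Angptl2+/+ and 40.3, 31.5 and 24.9 FPKM in Angptl2-/-. Angptl2+/+ replicate 3 was level with Angptl2-/- replicate 1, and the log2 fold change was −0.69 (SE 0.21). Uqcrb, a subunit near the ubiquinone site, and Uqcrh, the hinge protein near cytochrome c1, had log2 fold changes of −0.02 and −0.03, and both turned positive under a correction for length or quantile normalization (0.04 to 0.09). The GC correction moved them the other way, to −0.31 and −0.097.

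Cycs encodes cytochrome c, the soluble carrier between complexes III and IV. It had 28.3, 27.6 and 25.1 FPKM in Angptl2+/+ and 24.9, 26.8 and 23.7 FPKM in Angptl2-/-. The genotypes overlapped, and the log2 fold change was −0.10 (95% interval −0.34 to 0.13), or −0.39 after the GC correction.

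Complex IV, cytochrome c oxidase, held the largest share of genes with an unadjusted p under 0.05 or with separated libraries among the 4 complexes, although the share of negative values was about as high in complex V (13 of 14 genes, as against 9 of 10). Of its 10 genes, 9 had a negative log2 fold change, 6 had an unadjusted p under 0.05 in that direction (60.0%, as against 9.12% of all genes) and 7 were separated (70.0%, as against 11.8%). The median was −0.33, or −0.32 after the GC correction and −0.23 after the length correction. Cox8a, a small single-helix subunit and the most abundant of the 38 genes, had 501, 591 and 526 FPKM in Angptl2+/+ and 341, 316 and 385 FPKM in Angptl2-/- (chr19:7215153-7217616, minus strand). The genotypes were far apart, the ratio was 0.644, and the log2 fold change was −0.64 (SE 0.12, unadjusted p = 0.00109, adjusted p = 0.273), the smallest p of the 38 genes. It was −0.33 after the GC correction, a change of over 1.5 times. Cox4i1, the largest nuclear subunit and a site of regulation by adenine nucleotides, had 232, 231 and 211 FPKM in Angptl2+/+ and 178, 164 and 161 FPKM in Angptl2-/-. Its log2 fold change was −0.42 (SE 0.10, adjusted p = 0.273), the libraries were separated, and the value after the GC correction was −0.25. Cox6a1, the widely expressed isoform of a subunit that contacts the dimer interface, had 429, 435 and 473 FPKM in Angptl2+/+ and 320, 308 and 364 FPKM in Angptl2-/-. It was separated as well, with a log2 fold change of −0.43 (SE 0.11), which was −0.06 after the GC correction.

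**Figure D3:**
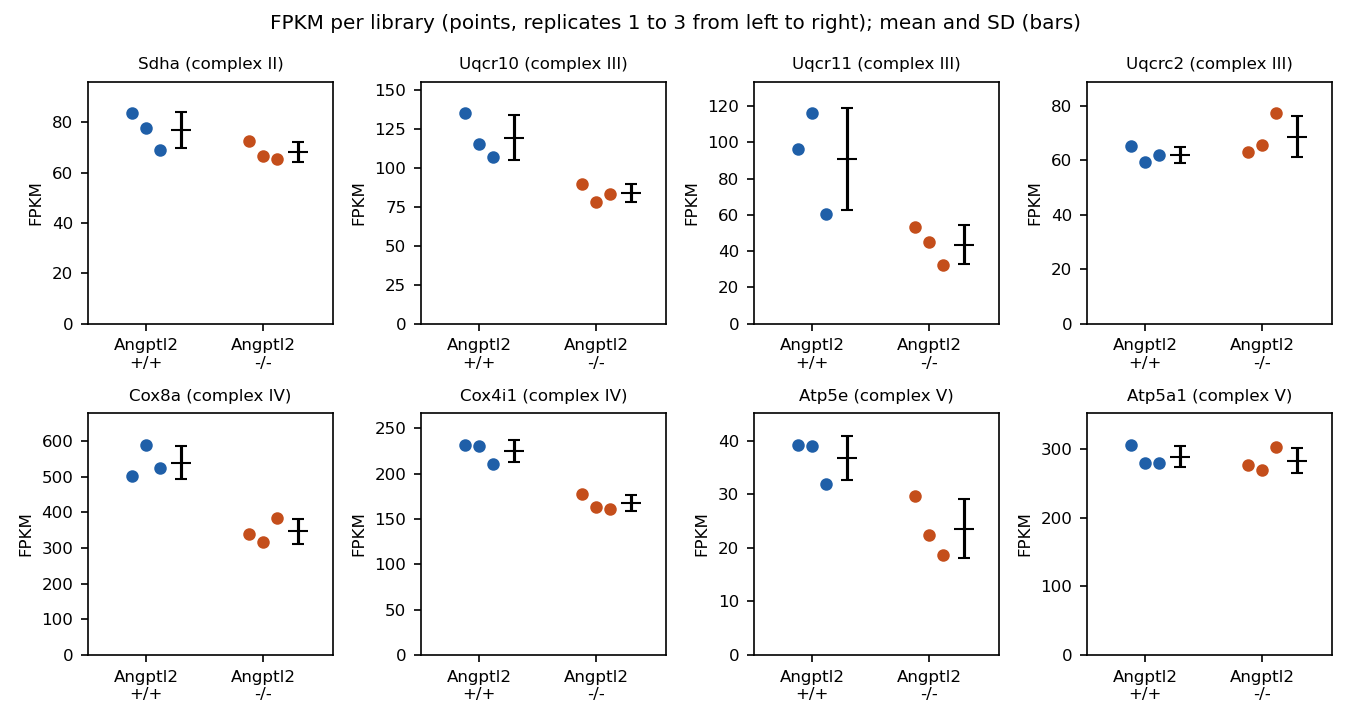
FPKM of 8 genes in each library (points, replicates 1 to 3 from left to right; blue, Angptl2+/+; orange, Angptl2-/-), with mean and SD of 3 libraries (bars). Uqcr10, Uqcr11, Cox8a, Cox4i1 and Atp5e are separated by genotype, whereas Sdha, Uqcrc2 and Atp5a1 overlap.

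Cox5a and Cox5b lie on the matrix side of the oxidase, and Cox5b binds zinc. Cox5a had 40.8, 38.8 and 39.6 FPKM in Angptl2+/+ and 35.4, 33.0 and 30.2 FPKM in Angptl2-/-, with a log2 fold change of −0.28 (SE 0.10, adjusted p = 0.277). Its libraries were separated, and the value after the GC correction was larger, at −0.48. Cox5b had 53.5, 58.0 and 34.7 FPKM in Angptl2+/+ and 33.3, 29.4 and 28.7 FPKM in Angptl2-/-, a log2 fold change of −0.64 (SE 0.20). Angptl2+/+ replicate 3 stood close to the Angptl2-/- libraries in this gene, and the genotypes were separated by a narrow margin. Cox6b1, on the side of the intermembrane space, had a log2 fold change of −0.39 (SE 0.15, separated), and Cox7b, a gene of the X chromosome, one of −0.27 (SE 0.14, separated). Cox7b was −0.13 without Angptl2+/+ replicate 1 and −0.53 after the GC correction, and Cox6b1 was −0.24 without Angptl2-/- replicate 3. Cox7c had −0.13 (−0.33 after the GC correction), Cox7a2 had −0.02 (−0.13) and Cox6c had 0.00, all with overlapping libraries. Cox6c, which had the only positive value of the complex, had 51.7, 39.0 and 40.7 FPKM in Angptl2+/+ and 39.8, 42.8 and 48.6 FPKM in Angptl2-/-. Within complex IV, the genes thus ranged from 0.00 to −0.64 on the log2 scale.

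Complex V, ATP synthase, was divided. Of its 14 genes, 13 had a negative log2 fold change, 4 had an unadjusted p under 0.05 and the same 4 were separated (Atp5d, Atp5e, Atp5g2 and Atp5g3; 28.6%, as against 9.12% and 11.8% of all genes), and the median was −0.21. In the catalytic head, Atp5a1 (alpha subunit) had 306, 280 and 279 FPKM in Angptl2+/+ and 277, 269 and 303 FPKM in Angptl2-/-, with full overlap and a log2 fold change of −0.03 (95% interval −0.27 to 0.21). Atp5b, the beta subunit that forms ATP, had 229 ± 13.5 FPKM (SD, n = 3) in Angptl2+/+ and 212 ± 6.85 FPKM in Angptl2-/-, a log2 fold change of −0.11 with overlap. These were the most abundant genes of the complex, and neither differed beyond the spread between libraries.

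The central stalk turns within that head and is made of the gamma, delta and epsilon subunits. Atp5c1 (gamma), the largest of them, had 103.5, 89.9 and 95.6 FPKM in Angptl2+/+ and 90.7, 94.8 and 108.6 FPKM in Angptl2-/-, with a log2 fold change of 0.02 and overlap. Atp5d (delta) had 101.5, 110.9 and 92.4 FPKM in Angptl2+/+ and 83.0, 75.01 and 66.5 FPKM in Angptl2-/-. It was separated, with a log2 fold change of −0.44 (SE 0.12, unadjusted p = 0.00787, adjusted p = 0.273), which was −0.12 after the GC correction. Atp5e (epsilon), which had the smallest p of the complex, had 39.3, 39.1 and 32.0 FPKM in Angptl2+/+ and 29.7, 22.4 and 18.7 FPKM in Angptl2-/- (chr2:174461072-174464105, minus strand). Its libraries were separated, the ratio was 0.634, and the log2 fold change was −0.66 (SE 0.18, unadjusted p = 0.0078, adjusted p = 0.273), or −0.58 after the GC correction. Genes of 1 stalk thus had values from 0.02 to −0.66. The peripheral stalk subunits Atp5h, Atp5j and Atp5o had log2 fold changes of −0.16, −0.14 and −0.37, all with overlap. Without Angptl2+/+ replicate 1, Atp5h was −0.073 and Atp5j −0.036, and without Angptl2-/- replicate 3, Atp5o was −0.19.

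Of the small membrane subunits e, f and g, Atp5k (e) had 50.5, 34.4 and 26.0 FPKM in Angptl2+/+ and 30.6, 25.9 and 10.5 FPKM in Angptl2-/-. This was the widest spread of the 38 genes, 4.81-fold from lowest to highest, and the log2 fold change of −0.81 (SE 0.42) was −0.34 without Angptl2-/- replicate 3. Atp5j2 (f) had a log2 fold change of −0.18 with overlap. Atp5l (g) had 10.9, 9.70 and 10.7 FPKM in Angptl2+/+ and 10.4, 10.1 and 10.1 FPKM in Angptl2-/-, the narrowest spread of the 38 genes and a log2 fold change of −0.04, or −0.33 after the GC correction. Its low FPKM is a value per annotated length: the exons of all its transcripts sum to 6443 bases, 1 transcript that does not encode the protein is 6310 bases long, and the longest coding transcript has 544 bases.

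**Figure D4:**
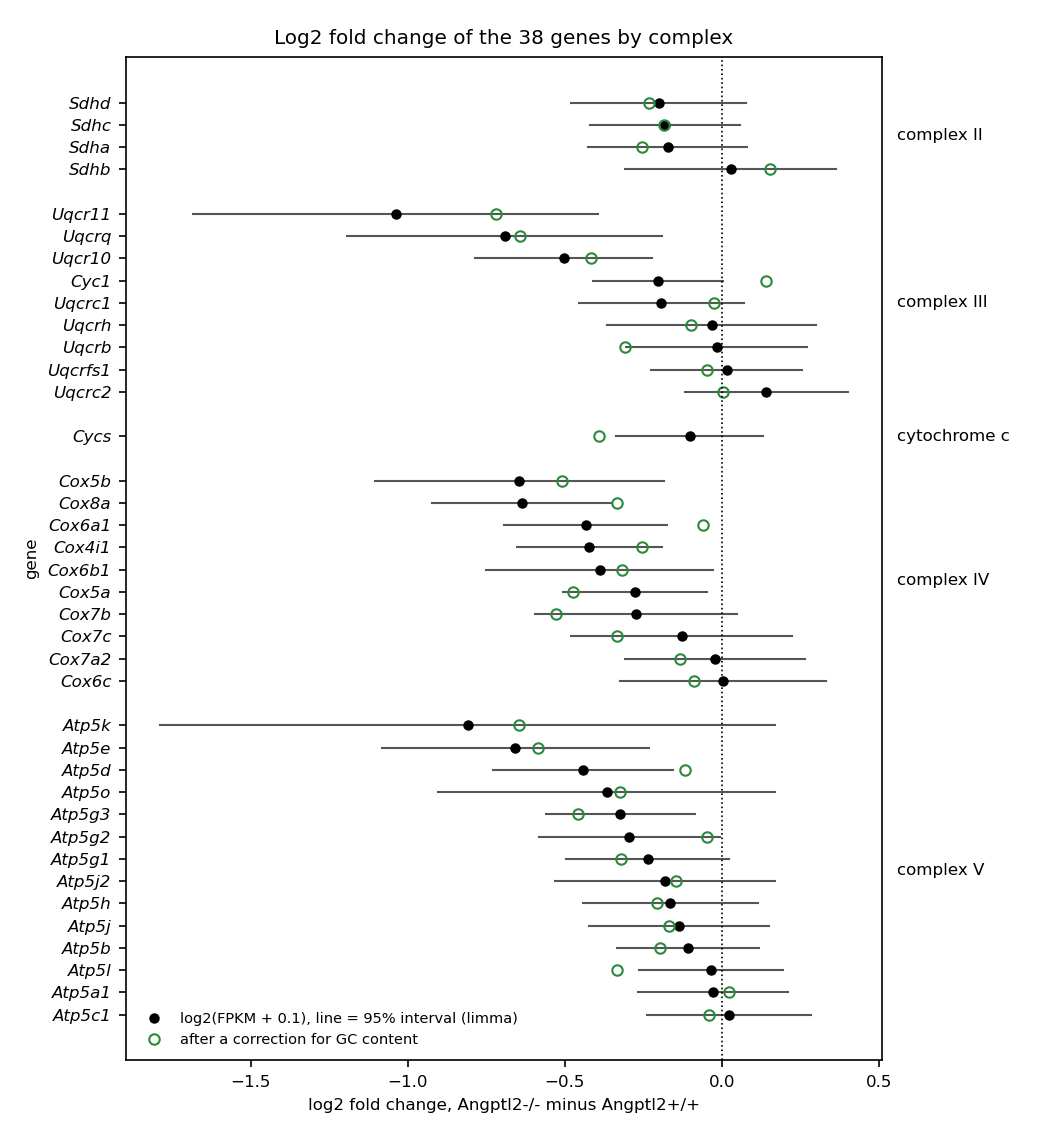
Log2 fold change (Angptl2-/- minus Angptl2+/+) of the 38 genes by complex (filled points; lines, 95% interval from limma) and the same value after a correction for GC content (open circles). Of the intervals, 13 lie wholly below 0 and none lies above it, and the open circles of Cox6a1, Atp5d and Cyc1 are moved furthest to the right.

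The ring of subunit c, through which protons pass, is encoded by 3 genes, Atp5g1, Atp5g2 and Atp5g3, whose precursors differ mainly in the import sequence that is cut off. Translated from the GENCODE M21 coding sequences, the 75 residues that precede the last residue were identical in all 3. The 225 bases that encode these 75 residues were identical at 190 positions for Atp5g1 and Atp5g2 (84.4%). They were identical at 178 for Atp5g1 and Atp5g3 (79.1%) and at 176 for Atp5g2 and Atp5g3 (78.2%). A stretch of 90 bases is shown to make clear how the messages of 1 protein part differ. Capitals mark the 23 positions at which the 3 genes do not all have the same base.
Atp5g1 (coding bases 181 to 270): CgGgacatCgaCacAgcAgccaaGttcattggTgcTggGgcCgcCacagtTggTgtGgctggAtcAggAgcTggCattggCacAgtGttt
Atp5g2 (coding bases 211 to 300): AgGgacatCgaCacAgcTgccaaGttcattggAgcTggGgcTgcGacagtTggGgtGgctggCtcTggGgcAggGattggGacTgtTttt
Atp5g3 (coding bases 196 to 285): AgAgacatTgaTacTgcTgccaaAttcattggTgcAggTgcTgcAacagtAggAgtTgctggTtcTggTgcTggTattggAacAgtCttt
Atp5g3 had 89.7, 84.4 and 80.2 FPKM in Angptl2+/+ and 73.7, 64.8 and 64.9 FPKM in Angptl2-/-, and was separated with a log2 fold change of −0.32 (SE 0.10, adjusted p = 0.274). Atp5g2 was separated as well, with a log2 fold change of −0.29 (SE 0.12, adjusted p = 0.303) that was −0.046 after the GC correction, and Atp5g1 overlapped at −0.24 (SE 0.11). The 3 genes kept similar proportions in both genotypes. These proportions rest on annotated exon lengths of 4912, 1675 and 2181 bases for Atp5g1, Atp5g2 and Atp5g3, and they leave out fragments assigned to near-identical copies. Atp5g3 made up 59.1% ± 0.298 (SD, n = 3) of their summed FPKM in Angptl2+/+ and 58.1% ± 0.846 in Angptl2-/- (exact permutation test, two-sided, p = 0.2, adjusted p over 3 comparisons = 0.6). The share of Atp5g2 was 24.0% ± 0.716 and 24.1% ± 1.66 (exact permutation p = 1.0), and that of Atp5g1 was 16.9% ± 0.605 and 17.8% ± 2.49 (exact permutation p = 0.6). With 3 libraries per genotype this test cannot give a p below 0.1, so that it could not have passed the threshold.

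Short respiratory genes have many retrocopies in the mouse genome, and fragments can be divided between a gene and its copy. At 90% or more identity over 80% or more of the coding part, 20 of the 38 genes had 64 copies in GENCODE M21. Copies took over 1% of the fragments of gene and copies together for 11 genes, with the largest shares for Atp5l (22.8%), Atp5g1 (20.8%), Atp5h (17.3%), Cox5b (10.4%), Cox7c (9.24%) and Cycs (7.57%). Cox5b and its copy Gm11273 (chr13:21501029-21501418), annotated as protein coding, show how little can separate them. Over 387 coding bases they differ at 3 positions, counted from the first coding base with the Cox5b base first (C114T, A213G and G243A). Bases 154 to 243 are shown, with the 2 differences in this stretch in capitals.
Cox5b: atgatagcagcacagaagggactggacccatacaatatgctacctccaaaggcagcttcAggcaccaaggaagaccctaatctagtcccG
Gm11273: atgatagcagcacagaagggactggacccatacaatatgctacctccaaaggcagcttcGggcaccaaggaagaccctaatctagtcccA
Gm11273 had 21.4, 29.6 and 12.8 FPKM in the Angptl2+/+ libraries and 24.1, 14.1 and 9.70 FPKM in the Angptl2-/- libraries, which overlap. With fragments of the copies added, the log2 fold change of Cox5b was −0.62 in place of −0.64. The coding part of Atp5l was identical to that of Gm10221 over 309 bases, that of Cox7c to Gm12338 over 189 bases and that of Cycs to Gm10053 over 315 bases, while Gm10039 differed from Atp5g1 at 1 of 408 (G385A) and Gm16418 from Uqcr11 at 2 of 168 (C87T and G116A). Adding the copies moved no log2 fold change of the 38 genes across 0. It left the count of negative values at 33, and 14 in place of 13 genes had an unadjusted p under 0.05.

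**Figure D5:**
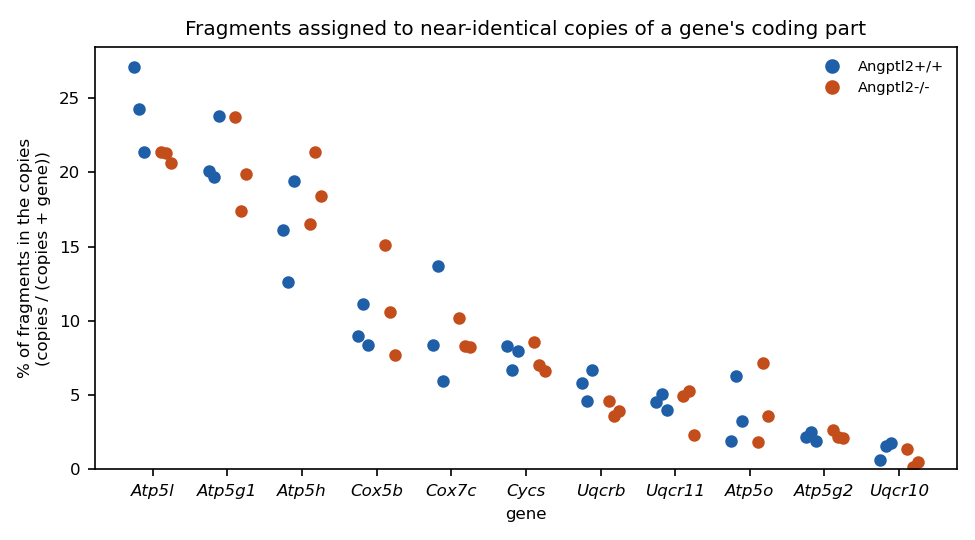
Share of fragments assigned to near-identical copies among those of gene and copies together, in each library (points; blue, Angptl2+/+; orange, Angptl2-/-), for the 11 genes in which the pooled share is over 1%. Atp5l, Atp5g1 and Atp5h have the highest pooled shares (22.8%, 20.8% and 17.3%).

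Base composition moved with the differences. Across the 38 genes, the log2 fold change was related to the GC content of the transcripts with r = −0.58 and rho = −0.60, and across all 14845 tested genes with a GC value with r = −0.49 and rho = −0.64. These are correlations across genes measured in the same 6 libraries, and genes are not independent replicates. Of the 19 genes with a GC content of 50% or more, 11 were lower at an unadjusted p under 0.05, with a median log2 fold change of −0.42. Of the 19 below 50%, 2 were lower at that level, with a median of −0.11. Shares over all tested genes of like GC content were not computed, so that these counts describe the 38 genes only. After a correction of each library for GC content, the medians of these groups were −0.25 and −0.23, the median of all 38 genes was −0.24, and 34 were negative. Among all genes tested, the GC correction reduced the count at an unadjusted p under 0.05 from 1355 to 535 lower and from 1054 to 394 higher, whereas 14 of the 38 genes were then lower at that level. These need not be the genes that were lower before. Cox6a1 moved from −0.43 to −0.06, Atp5d from −0.44 to −0.12 and Atp5g2 from −0.29 to −0.05. Uqcrb moved the other way, from −0.02 to −0.31, as did Atp5l (−0.04 to −0.33) and Cycs (−0.10 to −0.39). Length moved with the differences too: the 9 genes with a longest coding transcript under 600 bases had a median of −0.50 and the other 29 one of −0.18, and after the length correction these were −0.38 and −0.14. With the log2 of summed exon length, the log2 fold change had r = 0.5 and rho = 0.41 across the 38 genes. Across the 14845 tested genes these were 0.17 and 0.24. The part of base composition, length, RNA quality or cell composition in the lower values was not tested.

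Other genes of the same complexes did not follow the 38 uniformly. Of 15 further subunits and isoforms, 11 were tested, 6 with a negative and 5 with a positive log2 fold change, and the median was −0.05. Cox6a2, the isoform of Cox6a1 best known from heart and skeletal muscle, had 7.99, 8.53 and 8.84 FPKM in Angptl2+/+ and 5.29, 5.05 and 3.59 FPKM in Angptl2-/-. It was separated, with a log2 fold change of −0.87 (SE 0.16, unadjusted p = 0.000924, adjusted p = 0.273). Cox4i2, the isoform of Cox4i1, had 1.21, 0.286 and 0.299 FPKM and 1.06, 1.504 and 1.32 FPKM, a log2 fold change of 1.24 (SE 0.50) at a level far below that of Cox4i1. Usmg5, a small subunit of ATP synthase and the most abundant of these, overlapped at 0.12 on the log2 scale, and Ndufa4, now counted with complex IV, had one of −0.18 and was separated. Cox8c and Cyct, isoforms known from testis, were listed at 0 in all libraries. Of 30 assembly factors tested, 19 were negative (as against 50.6% of all genes) and 6 had an unadjusted p under 0.05 in that direction (as against 9.12%), with a median of −0.10. Uqcc2, which is needed to assemble complex III, had 30.9, 33.3 and 22.8 FPKM in Angptl2+/+ and 20.9, 18.6 and 16.9 FPKM in Angptl2-/-, a log2 fold change of −0.61 (SE 0.16, adjusted p = 0.273). Cox14, which acts early in the assembly of complex IV and was the most abundant factor by its mean over both genotypes, had a log2 fold change of −0.44 (SE 0.12, adjusted p = 0.273).

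Complex I takes electrons from NADH. Of its 37 nuclear subunits, 28 were negative (as against 50.6% of all genes) and 15 lower at an unadjusted p under 0.05 (as against 9.12%), with a median of −0.30 (−0.18 after the GC correction). Ndufb8 had the smallest p (8.72, 9.85 and 5.96 FPKM in Angptl2-/- and 14.9, 16.2 and 11.9 FPKM in Angptl2+/+, log2 fold change −0.82). The subunits of complexes III to V encoded in the mitochondrial genome lay on the other side of 0, with 5 of 6 positive, 0 at an unadjusted p under 0.05 and a median of 0.16. That median was −0.24 after the GC correction. mt-Co1, the catalytic subunit of complex IV, had 8567, 7382 and 12010 FPKM in Angptl2+/+ and 9533, 11500 and 12880 FPKM in Angptl2-/-, with overlap and a log2 fold change of 0.30 (SE 0.22). mt-Co2, which takes up the electrons from cytochrome c, had the smallest p of the 6, with 147.3, 150.5 and 156.0 FPKM in Angptl2+/+ and 157.7, 164.1 and 193.5 FPKM in Angptl2-/-. Mean Angptl2+/+ levels were 9320 FPKM for mt-Co1 and 5235 for mt-Cytb. They were only 151.3 for mt-Co2, 116.7 for mt-Atp6, 105.6 for mt-Co3 and 5.45 for mt-Atp8. The count of positive values and the median thus rest largely on genes at these much lower levels. Near-identical copies of the 6 genes were not searched for, and whether fragments were divided with such copies was not tested. All mitochondrial genes together took 3.31% to 4.56% of the fragments in Angptl2+/+ and 4.13% to 5.75% in Angptl2-/-. Nuclear and mitochondrial subunits were not tested against each other.

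The list of tricarboxylic acid cycle enzymes, which also held the pyruvate dehydrogenase genes Pdha1, Pdhb and Dlat, had a median of −0.03. Of its 16 genes, 9 were negative and 1 was lower at an unadjusted p under 0.05. Pdha1, Pdhb and Dlat were all positive (0.07, 0.22 and 0.09). Idh3b, a subunit of the NAD-dependent isocitrate dehydrogenase, was the 1 lower gene, at −0.26 (SE 0.10). Of 20 genes of the outer membrane, protein import and carriers, 10 were negative and 10 positive, with a median of 0.01. At an unadjusted p under 0.05, 3 were lower and 1 was higher, as against 9.12% and 7.09% of all genes. Tomm40, the import channel, had a log2 fold change of −0.60 (SE 0.12, adjusted p = 0.273), and Slc25a4, the ATP/ADP carrier, one of −0.32. As listed, with the pyruvate dehydrogenase genes included, both sets of mitochondrial proteins thus had medians near that of all genes. Of 11 transcriptional regulators of respiratory genes, 4 were negative, and the unadjusted p was under 0.05 for 1 lower and 1 higher gene. Esrra, the oestrogen-related receptor alpha, which activates many respiratory genes, had 19.9, 19.3 and 17.7 FPKM in Angptl2+/+ and 10.9, 10.1 and 10.1 FPKM in Angptl2-/-. It was separated, with a log2 fold change of −0.87 (SE 0.10, unadjusted p = 4.1e-05, adjusted p = 0.273), and it had the smallest p of its list. It was the most abundant gene of that list in Angptl2+/+ but not in Angptl2-/-, where Yy1 had 13.7 ± 0.769 FPKM (SD, n = 3).

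Several markers of other cells moved with the genotype beside these genes. All 7 choroid plexus markers were positive, 4 of them higher at an unadjusted p under 0.05, and all 7 markers of striatal neurons were positive, 5 at that level, with sums of 54.7 to 136 FPKM in Angptl2+/+ and 123 to 237 FPKM in Angptl2-/-. The 5 tested markers of red blood cells were all lower at an unadjusted p under 0.05, with sums of 302 to 498 and 125 to 274 FPKM. Endothelial markers summed to 81.0 to 84.5 FPKM in Angptl2+/+ and 61.4 to 72.7 FPKM in Angptl2-/-, although 5 of 7 were negative and 1 was lower at that level. All 8 markers of mature oligodendrocytes were negative, 1 at that level, with sums of 675 to 1420 and 442 to 961 FPKM that overlap, and the highest of these sums was in Angptl2+/+ replicate 1. Neuronal markers were divided, 4 negative and 4 positive, with sums of 1144 to 1462 and 1129 to 1285 FPKM. Astrocyte markers (5 of 8 negative; 578 to 729 and 558 to 599 FPKM), microglial markers (4 of 7 negative; 94.7 to 107 and 86.9 to 102 FPKM) and cerebellar markers (5 of 6 negative; 39.9 to 105 and 38.9 to 47.8 FPKM) overlapped in their sums. Without Angptl2+/+ replicate 1, the highest cerebellar sum was 47.8 FPKM. None of these markers was at 0 in every library, and their part in the values of the 38 genes was not tested.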

How the data were processed

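Brain RNA of 3 Angptl2+/+ and 3 Angptl2-/- libraries was sequenced as 150 bp read pairs, and the authors deposited 1 FPKM value per gene and library. Bowtie 0.12.2 and mm8 stand in the submitters' processing notes. How fragments were counted, and whether by strand, is not given in the sources used here. Of 54532 Ensembl gene identifiers, 54495 were found in GENCODE M21 (GRCm38), from which all gene positions and lengths were taken. A second identifier named Atp5o was listed at 0 in every library and was not used. FPKM times exon length gave whole fragments for 96.6 to 96.8% of values above 0 (tolerance 0.05 fragments), from which the fragments per gene were recovered. The library scale implied by FPKM was not the sum of these fragments. It was 17846900 against a sum of 17457100 in Angptl2+/+ replicate 1, but 16976400 against 18168000 in Angptl2+/+ replicate 3. Fragments set the counting error only.

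Genotypes were compared with limma 3.58.1 (R 4.3.3) on log2(FPKM + 0.1), two-sided, using moderated variances that follow an intensity trend. The 14862 genes whose mean FPKM reached 0.5 entered, and p-values were adjusted over all of them (Benjamini-Hochberg). Fold changes are on the log2(FPKM + 0.1) scale. GC content and length were corrected per library by loess (span 0.3), and blastn 2.17.0 searched for copies. The search with the coding part was chosen after seeing the data. Exact permutation tests used scipy 1.17.1, with numpy 2.4.6, pandas 2.3.3 and Python 3.11.15. The code was tested on simulated data.

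The genes and lists were chosen with earlier results of these data known. Values per library were given for the genes of smallest p, for the most and the least abundant gene and for the smallest p of the opposite sign in each complex (3 smallest p in complexes IV and V), and for the smallest p and the most abundant gene of each other list. Of the genes so chosen, 2 are not reported here. Uqcr11, Cyc1, Uqcrfs1, Cox5b, Atp5b, Atp5k, Cox4i2, Ndufa4 and the copies were given in more detail after their values were seen. Alternatives were other pseudocounts, filters, scalings, moderation, a replicate block, both corrections, the added copies, and each library left out in turn.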

Additional observations from a re-analysis of the deposited data

How the results depend on the processing

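No setting brought any of the 38 genes to an adjusted p under 0.05. The count of the 38 lower at an unadjusted p under 0.05 was 13 and ranged from 9 (without Angptl2-/- replicate 2) to 15, and their median log2 fold change from −0.26 to −0.13. Over all genes, the GC correction reduced the counts at an unadjusted p under 0.05 to 394 higher and 535 lower, leaving out 1 library gave 465 to 1373 higher and 790 to 1656 lower, and genes called lower numbered 0 to 1 in these fits. The replicate block called 1 gene higher, against 0 without it, and 15 of the 38 genes were then lower at an unadjusted p under 0.05. Correlations of deviations were 0.0371, −0.0693 and 0.162 between libraries of the same number and −0.256 to 0.257 between those of unlike number. With 3 libraries per genotype, they cannot show whether the libraries were paired. The median of complex IV was −0.23 after the length correction. Cyc1, at −0.20, turned to 0.14 under the GC correction. Signs of values close to 0 turned: under quantile normalization Uqcrb (0.042), Uqcrh (0.046), Cox7a2 (0.053) and Atp5a1 (0.039); under the GC correction Uqcrfs1 (−0.046), Cox6c (−0.088), Atp5c1 (−0.041) and Atp5a1 (0.024); under the length correction Uqcrb (0.093), Uqcrh (0.070), Cox7a2 (0.085) and Atp5a1 (0.016); with voom Cox6c (−0.0094). With 1 library left out, log2 fold changes ranged from −0.10 to 0.091 for Uqcrb, −0.12 to 0.11 for Uqcrh, −0.092 to 0.090 for Cox7a2, −0.079 to 0.015 for Atp5a1, −0.12 to 0.14 for Sdhb, −0.074 to 0.13 for Cox6c, −0.053 to 0.077 for Atp5c1 and −0.036 to 0.080 for Uqcrfs1. The cause of these changes was not tested. Quantile normalization moved the median of all genes to 0.02. Copies found over the whole transcript held 0 fragments and changed nothing. Median-ratio scaling also left these counts and medians as they were in the deposited values (13 of the 38 lower, median −0.20), so that it was no separate check.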
